A study of Mus musculus with 4 samples.

Results

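The genes examined encode the subunits, activators and assembly chaperones of the proteasome, and were all rows of the gene table whose symbol is Psm, a letter from a to g and a number. The rule found 48 genes of 56883 in the table: 19 of the core particle, 22 of the regulatory particles and 7 assembly chaperones. They were measured by total RNA sequencing in tdTomato-positive cells sorted from the basal telencephalon of mice at the E14.5 stage, with 2 control libraries (*Sst-Cre/tdTomato*) and 2 *Dnmt1* KO libraries (*Sst-Cre/tdTomato/Dnmt1 loxP2*). Cre driven by *Sst* marks somatostatin interneurons in both genotypes and deletes *Dnmt1*, the gene of a DNA methyltransferase, only in the KO. RNA came from 50000 cells pooled per genotype from several embryos, so the spread between the 2 libraries of a genotype is a spread between pools and may be partly technical.

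The proteasome degrades proteins tagged with ubiquitin. Its core particle stacks 2 kinds of ring: the alpha rings gate the chamber, and the beta rings hold the proteolytic sites. The regulatory particle has a base, whose ring of ATPases unfolds substrates and threads them into the core, and a lid that removes ubiquitin. Chaperones build the rings and leave the finished particle. Neurons depend on this machinery for protein turnover during differentiation and at synapses.

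The deposited values are normalized counts: the reads of a gene, divided by a scaling factor of its library. The reads recovered from them numbered 6970247 to 8376711 per library. *Dnmt1* itself had normalized counts of 2238 and 2341 in the control and of 2164 and 2210 in the KO (log2 fold change -0.066 ± 0.054 SE, limma adjusted p = 0.461). That count covers the whole gene and not only the floxed stretch, so it does not check the deletion. Markers of the labelled cell type were present: the summed normalized count of 10 interneuron genes, *Sst*, *Lhx6* and *Gad1* among them, was 20207 to 20554 in the control and 31566 to 31721 in the KO, and all 10 were higher in the KO. Markers of other cells were lower in the KO, with 6 of 8 radial glia genes called lower and *Sox2* called higher (summed 10148 to 10242 against 6024 to 6226), 6 of 6 genes of dividing cells (5486 to 5619 against 3941 to 3990) and 6 of 7 excitatory-lineage genes (2551 to 2609 against 1299 to 1451). All 6 tested of 8 blood genes were also lower (2152 to 2234 against 468 to 492; *Hbb-bh1* was at 0 in at least 1 library), as were 7 of the 9 tested of 12 vascular, fibroblast and microglial genes (583 to 604 against 247 to 296; *P2ry12* was at 0 in at least 1 library). These shifts moved with genotype beside every difference below, and their part in it was not tested. In bulk RNA, fewer cells of a type and less RNA per cell cannot be told apart.

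Apart from a few tissue-specific subunits, the proteasome genes were expressed in all 4 libraries at nearly the same level, with a small shift to lower values in the *Dnmt1* KO. A gene was called when its limma adjusted p was below 0.05 in a fit over 14323 genes, those whose normalized count averaged 10 or more. Of the 48 proteasome genes, 44 passed that filter and 2 were called, *Psmc3* and *Psmd12*, both lower in the KO. For comparison, 17.3% of all tested genes were called, 8.99% lower and 8.3% higher. At an unadjusted p below 0.05, 8 of the 44 genes passed, all 8 lower, against backgrounds of 15.4% lower and 30.2% in either direction. The called share of the tested proteasome genes was 4.55%, under that background. Count tests on the recovered reads called *Psmc3* alone: 1 of 44 with edgeR (background 17.6%) and 1 of 44 with DESeq2 (background 9.2%).

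The direction was mostly shared. The log2 fold change (KO minus control) was below 0 for 35 of the 44 genes, against 50.5% of all tested genes, and its median was -0.098, against -0.0033 over all tested genes and -0.017 over the protein-coding ones. In 22 of the 44 genes both KO values lay under both control values, against a background of 29.0%. In 2 of the 44, *Psmd5* and *Psme4*, both KO values lay above both control values, against a background of 28.4%. The sizes were small: the median absolute log2 fold change was 0.13, against 0.21 over all tested genes. With a trend of fold change over the length and GC content of the canonical transcript removed, the median was -0.037 and 27 of the 44 were below 0, and with the longest annotated transcript it was -0.11 with 31 below 0. The ends of the range were *Psme2* at -0.43 and *Psmd5* at 0.24, and neither was called.

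**Figure D1:**
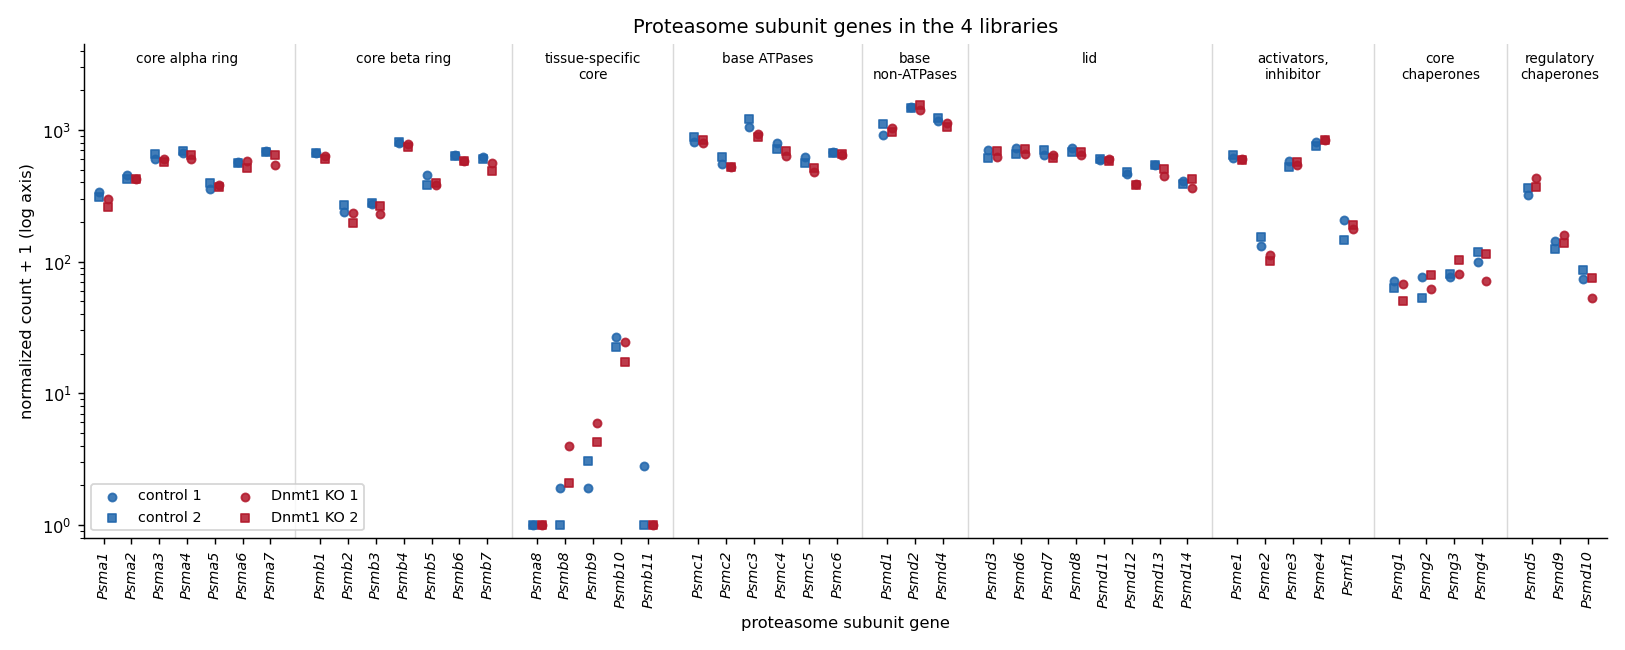
Normalized count plus 1 (log axis) of each of the 48 proteasome subunit genes, grouped by class, in the 2 control (blue) and 2 *Dnmt1* KO (red) libraries, with circles for replicate 1 and squares for replicate 2. The alpha-ring, beta-ring, base and lid genes lie between 197 (*Psmb2*) and 1542 (*Psmd2*), *Psmg1* to *Psmg4* between 49.2 and 116, and *Psma8*, *Psmb8*, *Psmb9* and *Psmb11* within a few reads of 0.

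In summed reads, the proteasome genes took 0.313% of the reads in control 1 (95% Wilson interval 0.310% to 0.317%) and 0.317% in control 2 (0.313% to 0.322%). They took 0.288% in KO 1 (0.284% to 0.292%) and 0.291% in KO 2 (0.287% to 0.295%). The KO shares lay under both control shares, and the intervals, which cover counting error only, did not meet across genotypes. The summed normalized count of the core genes was 7394 and 7372 in the control and 6845 and 6705 in the KO, and that of the regulatory genes was 15234 and 15326 against 14218 and 14522. The assembly chaperones summed to 853 and 882 in the control and 920.3 and 922 in the KO, while 3 of the 7 genes had a fold change below 0.

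The balance between the parts of the particle moved little. Levels were scaled per kilobase of coding sequence. Reads of total RNA also fall on untranslated stretches, so this scaling raises genes in which these are long. On this scale the core genes made up 43.4% and 43.3% of the summed level in the control and 43.4% and 42.1% in the KO. The regulatory genes made up 51.5% and 51.4% in the control and 51.2% and 51.8% in the KO. The assembly chaperones made up 5.14% and 5.32% in the control and 5.46% and 6.07% in the KO. The genotypes overlapped in the share of the core and of the regulatory genes but not in that of the chaperones. The summed level of the chaperones per kilobase did overlap (1177 and 1220 in the control, 1158 and 1300 in the KO). So did the share of the core chaperones (2.83% and 2.93% against 2.63% and 3.47%). The share of the regulatory chaperones did not (2.31% and 2.40% against 2.83% and 2.60%).

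Pairs of libraries were also compared without a fit. Between the 2 control libraries the median absolute log2 difference of the 44 genes was 0.12, and between the 2 KO libraries it was 0.11. Across genotypes it was 0.098 to 0.15 over the 4 pairs. Over all 14323 tested genes the same measure was 0.15 and 0.14 within a genotype and 0.24 to 0.25 across. A chi-square statistic per degree of freedom was also taken on the recovered reads, and is near 1 where libraries differ by counting noise alone. Its expected split came from the summed reads of the same genes, so a shift shared by all of them does not enter it. For the proteasome genes the statistic was 2.69 and 2.15 within a genotype and 2.08 to 3.58 across. For all tested genes it was 2.84 and 2.39 within and 10.3 to 10.7 across. In size, the differences of the proteasome genes across genotypes overlapped those within a genotype, and those of all tested genes did not. In sign they did not overlap: the median log2 difference of the 44 genes was -0.013 and 0.0057 within a genotype and -0.11 to -0.079 from control to KO, with 31 to 36 of the 44 lower in the KO library.

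**Figure D2:**
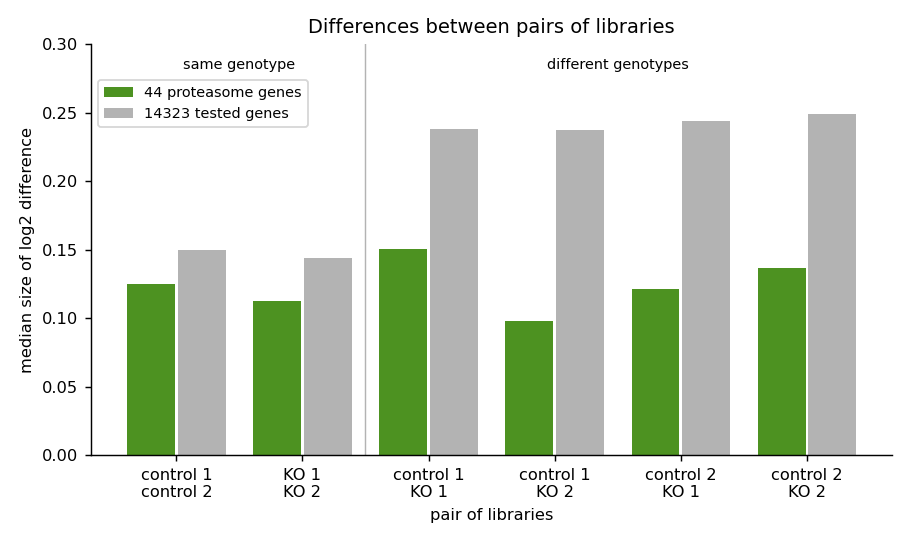
Median absolute log2 difference between the normalized counts (plus 1) of 2 libraries, for each of the 6 pairs of libraries, over the 44 tested proteasome genes (green) and over all 14323 tested genes (grey). The grey bars rise from 0.14 to 0.15 within a genotype to 0.24 to 0.25 across, while the green bars stay between 0.098 and 0.15 in every pair.

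The proteasome gene with the lowest adjusted p encodes a subunit of the ATPase ring of the base. *Psmc3*, the gene of the ATPase RPT5 (ENSMUSG00000002102, GRCm39 chr2:90884354-90896714, plus strand), had normalized counts of 1059 and 1218 in the control and of 925 and 882 in the KO. Both KO values lay under both control values. It fell by 0.33 ± 0.077 (SE, log2; 95% interval -0.49 to -0.17), with a limma adjusted p of 0.00773. Without control replicate 2, its highest library, the fold change was -0.23 and the adjusted p 0.0973. *Slc39a13* and a long noncoding gene overlap *Psmc3* on the opposite strand, and whether reads were counted by strand is not given in the sources used here.

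The other ATPases had the same sign. All 6 genes *Psmc1* to *Psmc6* had a fold change below 0, from -0.33 to -0.051 with a median of -0.18. In 5 of them both KO values lay under both control values, against a background of 29.0%. An unadjusted limma p below 0.05 was reached by 3, against backgrounds of 15.4% lower and 30.2% in either direction. The called share was 1 of 6 (16.7%), against 17.3% of all tested genes. *Psmc5*, named after its values were seen, had 618 and 563 in the control and 482 and 511 in the KO (-0.25 ± 0.088, limma adjusted p = 0.0663). It was called with a minimum mean of 50 (adjusted p = 0.0483), and with the canonical-transcript trend over length and GC content removed it was at -0.13 (adjusted p = 0.366). The summed normalized count of the ATPase genes was 4504 and 4672 in the control and 3994 and 4095 in the KO. *Psmc1* and *Psmc6* lay nearest 0, and their intervals reached from -0.22 to 0.11 each.

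The 3 non-ATPase genes of the base were also below 0, and none was called, against a background of 17.3%. *Psmd2*, with the highest count of all 48 genes, and *Psmd1* had fold changes of -0.0061 (95% interval -0.14 to 0.13) and -0.0039 (-0.19 to 0.18). These 2 proteins are scaffold subunits of the base. *Psmd4*, the gene of the ubiquitin receptor RPN10, had 1160 and 1226 in the control and 1128 and 1049 in the KO (-0.13 ± 0.068, limma adjusted p = 0.211). Its genotypes did not overlap, although it was not called.

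In the lid, *Psmd12* was called. *Psmd12*, the gene of the structural subunit RPN5 (ENSMUSG00000020720, GRCm39 chr11:107370246-107395206, plus strand), had 460.0 and 475 in the control and 389 and 380.2 in the KO. Both KO values lay under both control values, with little spread inside a genotype. It fell by 0.28 ± 0.092 (SE, log2; 95% interval -0.48 to -0.086; limma adjusted p = 0.0463). The call did not survive leaving out any single library: over those 4 fits the fold change was -0.30 to -0.26 and the adjusted p 0.0992 to 0.172. A long noncoding gene overlaps *Psmd12* on the same strand, so the genes can share reads.

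The other 7 lid genes were not called. *Psmd14*, the gene of the deubiquitinase RPN11 that removes ubiquitin chains, had 405 and 385 in the control and 362 and 420 in the KO (-0.019, 95% interval -0.24 to 0.20). With the longest-transcript trend removed it was at -0.45 and was called lower (limma adjusted p = 0.0140). *Psmd11*, the gene of the lid subunit RPN6, had 587 and 596 in the control and 598 and 578 in the KO (-0.0093, 95% interval -0.18 to 0.16). For both genes the genotypes overlapped. Over the 8 lid genes the median was -0.057, 7 were below 0, 4 did not overlap between genotypes and 1 was called. *Psmd13*, named after its values were seen, was at -0.20 with no overlap and an unadjusted limma p of 0.0477 (adjusted p = 0.161).

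In the core, none of the 15 tested genes was called by limma, edgeR or DESeq2 (backgrounds 17.3%, 17.6% and 9.2%). An unadjusted limma p below 0.05 was reached by 2, against a background of 30.2% in either direction. The fold change was below 0 for 14 of them. The median was -0.12, and in 10 of the 15 both KO values lay under both control values, against a background of 29.0%. The 7 alpha-ring genes, *Psma1* to *Psma7*, ranged from -0.22 (*Psma7*) to 0.0065 (*Psma5*), with a median of -0.10. The 7 beta-ring genes, *Psmb1* to *Psmb7*, were all below 0, from -0.23 (*Psmb7*) to -0.067 (*Psmb4*), with a median of -0.15 and no overlap in 6 of them. Their 95% intervals together reached from -0.50 to 0.12.

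The 3 proteolytic subunits of the beta ring are given in full. *Psmb5*, which carries the chymotrypsin-like activity, had 451 and 382 in the control and 379.8 and 394 in the KO (-0.10 ± 0.10, limma adjusted p = 0.566). The genotypes overlapped for *Psmb5*, since control 2 lay between the KO values. *Psmb6*, which carries the caspase-like activity, had 643 and 632 in the control and 576 and 577 in the KO (-0.15 ± 0.080, limma adjusted p = 0.239). *Psmb7*, which carries the trypsin-like activity, had 626 and 597 in the control and 556 and 485 in the KO (-0.23 ± 0.090, limma adjusted p = 0.0889). *Psmb6* and *Psmb7* did not overlap between genotypes, and *Psmb7* was at -0.33 and called without KO replicate 1 (adjusted p = 0.0320) but at -0.14 without KO replicate 2 (adjusted p = 0.497) and at -0.11 with the canonical-transcript trend over length and GC content removed (adjusted p = 0.485).

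The common sign of the beta ring depended on the processing. After removal of the trend that fold changes follow with transcript length and GC content, taken from the canonical transcript of each gene, the beta-ring median was -0.0035 and 4 of the 7 genes were below 0, and *Psmb6* was at 0.026. With the longest annotated transcript in its place, the beta-ring median was -0.077 and 6 of the 7 were below 0. The canonical-transcript step left the alpha-ring median at -0.15 (5 of 7 below 0) and the ATPase median at -0.18 (6 of 6 below 0). It also ended the call of *Psmc3* (-0.23, limma adjusted p = 0.0585), while *Psmd12* was still called and *Psma3* and *Psmc6* were called lower in addition, against a background of 16.5% of all genes called and 8.8% called lower.

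**Figure D3:**
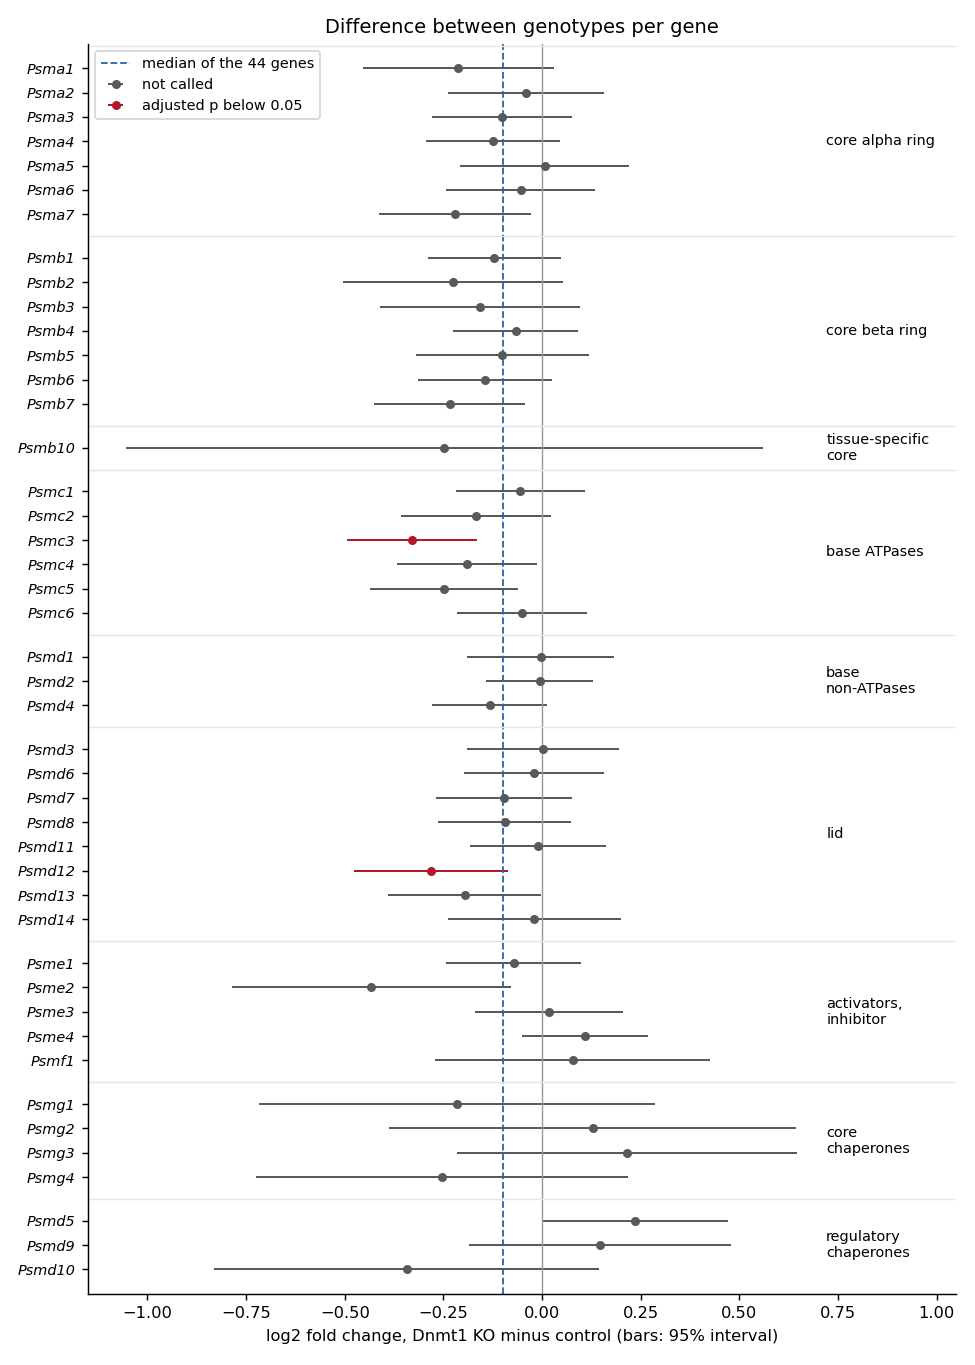
Log2 fold change (*Dnmt1* KO minus control) of the 44 tested proteasome genes with 95% intervals from limma, grouped by class. *Psmc3* and *Psmd12* (red) were called. Most points lie left of 0, and the dashed line marks their median of -0.098.

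The immunosubunits, which replace the 3 proteolytic subunits in immune cells and under interferon, were near 0 in both genotypes, apart from *Psmb10*. *Psmb8*, the counterpart of *Psmb5*, had normalized counts of 0.895 and 0 in the control and 2.96 and 1.09 in the KO, from 5 reads in all. *Psmb9*, the counterpart of *Psmb6*, had 0.895 and 2.04 in the control and 4.93 and 3.28 in the KO, from 11 reads in all. Neither was tested, and with so few reads the order of the genotypes is not detectable at this depth. *Psmb10*, the counterpart of *Psmb7*, had 26.0 and 21.4 in the control and 23.7 and 16.4 in the KO (-0.25 ± 0.38, limma adjusted p = 0.716). Per kilobase of coding sequence, *Psmb10* had a mean control level of 28.9 normalized counts, against 736 for *Psmb7*.

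Of the other tissue-specific core genes, *Psmb11*, known from the thymic cortex, had 2 reads, both in control 1. *Psma8*, known from the testis, had no reads in any library, which allows up to 3.58e-05% to 4.3e-05% of the reads of a library (3 reads of the total). These limits cover counting error only. Of a list of 10 genes of antigen presentation and interferon signalling, 6 were tested, and *Irf1* was not. None of the 6 was called with limma, edgeR or DESeq2, against the background of 17.3%. With 6 genes, the absence of calls does not show that they were unchanged. The fold change was below 0 for 4 of them and above 0 for 2. The 1 gene at an unadjusted limma p below 0.05 was *B2m*. *B2m* had 27.7 and 31.6 in the control and 16.8 and 9.83 in the KO (-1.14 ± 0.40, limma adjusted p = 0.0655), with no overlap between genotypes.

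The alternative activators and the inhibitor differed in direction among themselves. None of these 5 genes was called by limma, edgeR or DESeq2 (backgrounds 17.3%, 17.6% and 9.2%). An unadjusted limma p below 0.05 was reached by 1, against a background of 30.2%. *Psme1* and *Psme2* encode the interferon-inducible ring PA28 alpha and beta. *Psme2*, named after its values were seen, had 132 and 154 in the control and 111 and 99.4 in the KO (-0.43 ± 0.17, limma adjusted p = 0.0874), whereas the fold change of *Psme1* was -0.072 (95% interval -0.24 to 0.099). *Psme2* overlaps *Rnf31* on the opposite strand. *Psme3*, the gene of the nuclear activator PA28 gamma, had 584 and 520 in the control and 545 and 570.3 in the KO (0.017, 95% interval -0.17 to 0.21). *Psme4*, the gene of the large activator PA200, had 813 and 748 in the control and 841 and 842 in the KO (0.11 ± 0.075, limma adjusted p = 0.360). Both KO values of *Psme4* lay above both control values. *Psmf1*, the gene of the inhibitor PI31, had 206 and 144 in the control and 175 and 189 in the KO (0.077, 95% interval -0.27 to 0.43), so that the KO values lay inside the control range.

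None of the 7 assembly chaperones was called by limma, edgeR or DESeq2 (backgrounds 17.3%, 17.6% and 9.2%). An unadjusted p below 0.05 was reached by 0 with limma (background 30.2%) and 1 with edgeR (background 4347 of 14323 genes). *Psmg1* and *Psmg2* encode the pair that starts the alpha ring. *Psmg1* had 70.7 and 62.3 in the control and 66.1 and 49.2 in the KO (-0.22 ± 0.24, limma adjusted p = 0.592). *Psmg2* had 76.1 and 52.1 in the control and 61.2 and 77.6 in the KO (0.13 ± 0.24, limma adjusted p = 0.774). Both genes overlapped between genotypes. *Psmg3* and *Psmg4* encode another pair that acts on the same ring. *Psmg3* had 75.2 and 79.6 in the control and 78.9 and 103 in the KO (0.22 ± 0.20, limma adjusted p = 0.522). *Psmg4* had 97.5 and 116 in the control and 70.0 and 114 in the KO (-0.25 ± 0.22, limma adjusted p = 0.488). The members of a pair thus had opposite signs in both pairs, with intervals that all included 0.

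*Psmd5*, *Psmd9* and *Psmd10* encode chaperones of the ATPase ring. *Psmd5*, named after its values were seen, had 318 and 361 in the control and 434 and 367 in the KO (0.24 ± 0.11, limma adjusted p = 0.167), with no overlap between genotypes. *Psmd10*, the gene of gankyrin, also named afterwards, had 73.4 and 85.8 in the control and 52.3 and 74.3 in the KO (-0.34 ± 0.23, limma adjusted p = 0.346). *Psmd9* was at 0.15 (95% interval -0.19 to 0.48). The median of the 7 chaperones was 0.13, and it changed sign when control replicate 2 (-0.13) or KO replicate 2 (-0.0057) was left out.

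Levels were also set side by side per kilobase of coding sequence. In the control, the alpha-ring genes spanned 409 (*Psma1*) to 928 normalized counts per kilobase (*Psma7*), the beta-ring genes 418 (*Psmb2*) to 1015 (*Psmb4*), the ATPases 450.1 (*Psmc2*) to 858 (*Psmc3*) and the lid genes 342 (*Psmd12*) to 699.9 (*Psmd7*). The class medians were 763, 736, 590 and 473 in the control and 736, 627, 542 and 442 in the KO. The core chaperones spanned 76.7 (*Psmg1*) to 289.9 (*Psmg4*). Inside each of the alpha ring, the beta ring, the ATPase ring and the lid, a particle holds the subunits in equal numbers. Per kilobase of coding sequence, the levels spanned 1.91 to 2.43 times inside each of these 4 classes. The base non-ATPases, which are also part of the regulatory particle, spanned 3.00 times, from *Psmd1* at 353 to *Psmd4* at 1058. The activator and inhibitor genes, whose products are not part of every particle, spanned 5.95 times, from *Psme4* at 141 to *Psme1* at 841. These spans rest on the divisor, and spans per kilobase of transcript were not taken. The canonical transcript of *Psme1* has 4227 bases, 747 of them coding, and that of *Psme4* 6492 with 5529 coding. That of *Psmb1* has 6002 with 720 coding, and that of *Psmb4* 1183 with 792. Differences between classes in these spans cannot be told apart from untranslated length.

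Among genes of the ubiquitin and proteasome pathway whose symbols fall outside the rule, the called genes were all lower in the KO. Of 43 such genes in the table, 39 were tested and 6 were called, all lower in the KO, which is 15.4% against backgrounds of 8.99% called lower and 17.3% called in either direction. *Pomp*, the gene of the maturation factor that completes the core particle, had 467 and 469.6 in the control and 398 and 326 in the KO (-0.38 ± 0.11, limma adjusted p = 0.0227). *Sem1*, the gene of the smallest lid subunit, had 586 and 647 in the control and 494 and 505 in the KO (-0.30 ± 0.086, limma adjusted p = 0.0247). *Ube3c*, the gene of a ubiquitin ligase that binds the proteasome, had 4904 and 4805 in the control and 4269 and 4003 in the KO (-0.23 ± 0.048, limma adjusted p = 0.00341). In each of these 3 genes both KO values lay under both control values. They belong to a list of 9 tested proteasome proteins outside the rule, of which edgeR called 3 (background 17.6%) and DESeq2 1 (background 9.2%). *Pomp* and *Sem1* have short transcripts, and neither was called after the trend over length and GC content was removed (-0.19 and -0.12, adjusted p = 0.246 and 0.402). The adjusted p of *Pomp* was also above 0.05 when control replicate 1, control replicate 2 or KO replicate 2 was left out (0.0851 to 0.232), and that of *Sem1* without control replicate 2 (0.175) or KO replicate 1 (0.0750).

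*Rps27a*, which encodes ubiquitin fused to a ribosomal protein, had 1477 and 1487 in the control and 1228 and 1194 in the KO (-0.29 ± 0.062, limma adjusted p = 0.00398). Both KO values lay under both control values. Ribosomal protein genes have many processed copies that can share reads. The polyubiquitin gene *Ubb* was at -0.040 and was not called. The E1 enzyme gene *Uba1* was at 0.091. Of 10 genes of substrate shuttles and unfolding, *Vcp* among them, 0 were called by limma, edgeR or DESeq2 (backgrounds 17.3%, 17.6% and 9.2%). An unadjusted limma p below 0.05 was reached by 1, against a background of 30.2%.

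Transcription of proteasome genes is known to depend on NRF1, encoded by *Nfe2l1*, which raises them together when proteasome activity falls, on the related NRF2, encoded by *Nfe2l2*, under oxidative stress, and on the CCAAT-binding factor NF-Y. *Nfe2l1* had 860.0 and 909 in the control and 879 and 901 in the KO (0.0099, 95% interval -0.14 to 0.16, limma adjusted p = 0.948), so the genotypes overlapped. *Nfe2l2* had 75.2 and 59.2 in the control and 38.5 and 18.6 in the KO and fell by 1.28 ± 0.33 (SE, log2; limma adjusted p = 0.0132). Over the 4 fits without 1 library its fold change ran from -1.79 (without KO replicate 1) to -0.78 (without KO replicate 2), and the adjusted p was 0.129 without control replicate 1 and 0.0719 without KO replicate 2. It was the 1 gene called of the 8 in the list on transcriptional control, and its counts were low.

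The promoters were searched for the letters these factors are known to read, in a window from 250 bases before to 50 after the canonical start on GRCm39, on both strands. The core of the antioxidant response element, TGACNNNGC, was found in 8 of the 48 promoters (16.7%), against 13.4% of the promoters of all 12278 tested protein-coding genes. The CCAAT box, CCAAT, was found in 18 of the 48 (37.5%), against 39.9%. Both shares were close to those of all promoters. A window may hold both motifs. The 2 called genes and 2 catalytic subunits are shown in 30 bases around a match, 5′ to 3′ on the strand of the gene, with the match in capitals. For *Psmd12* the match reads on the opposite strand.
Psmc3, CCAAT, chr2:90884336-90884365 (plus strand): cctgtacgccggCCAATagcagcccagccc
Psmd12, TGACNNNGC, chr11:107370097-107370126 (plus strand): gagatgttctGCTGTGTCAcatttgccccc
Psmb5, TGACNNNGC, chr14:54855480-54855509 (minus strand): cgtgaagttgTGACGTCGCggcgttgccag
Psmb6, TGACNNNGC, chr11:70416164-70416193 (plus strand): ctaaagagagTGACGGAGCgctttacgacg
A match is a run of letters and not a bound site. *Psmc3* and *Psmd12* were called lower in the KO. The matches of *Psmb5* and *Psmb6* begin at positions -18 and -9 from the start. Both of these genes had a fold change below 0 (-0.10 and -0.15) but were not called. Of all 44 tested proteasome genes, 35 were below 0. Among genes with a match that is not shown, *Psmd9* (TGACNNNGC) and *Psme3* (CCAAT) had fold changes above 0 (0.15 and 0.017). A link between a match and the direction was not tested.

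**Figure D4:**
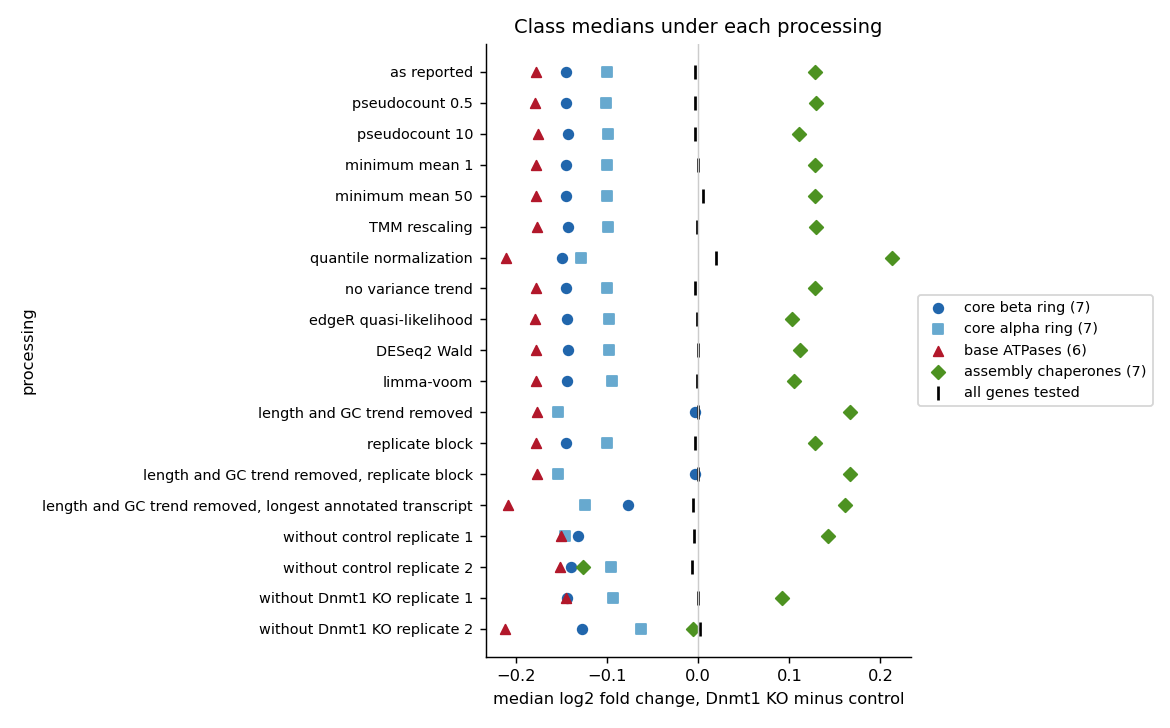
Median log2 fold change (*Dnmt1* KO minus control) of the beta ring (7 genes), alpha ring (7), base ATPases (6), assembly chaperones (7) and all tested genes, one row per way of processing the values. The ATPase median stays between -0.21 and -0.15 throughout. The beta-ring median moves to -0.0035 with the canonical-transcript trend over length and GC content removed. With the longest transcript it moves to -0.077. The chaperone median changes sign when control replicate 2 or KO replicate 2 is left out, but not without control replicate 1 or KO replicate 1.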

How the data were processed

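RNA from tdTomato-positive cells of 2 control and 2 *Dnmt1* KO pools was sequenced with a stranded total RNA kit. Before deposition the authors used Trim Galore for trimming, STAR for alignment (GRCm39) and Salmon for quantification, and scaled the gene counts with DESeq2. The values they deposited, a signal in normalized counts, were checked: each of the 89965 values above 0 (100%) is a whole number of reads, within 0.0001 of a read, over the size factor of its library (1.12, 0.980, 1.01 and 0.915).

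The fit took log2 of the normalized count plus 1 for genes averaging 10 or more, in limma 3.58.1 (R 4.3.3, eBayes with a variance trend), with genotype as the only term. Fold changes are on that scale and understate low genes. P-values were adjusted by Benjamini-Hochberg over all tested genes. The steps were tested on simulated data. An exact two-sided permutation test of 2 against 2 cannot go below 0.333 and was not used. Alternatives included the count tests of edgeR 4.0.16 and DESeq2 1.42.0 on the recovered reads. Gene positions, coding lengths and starts came from GENCODE for GRCm39, which held all 48 members and 14285 of 14323 tested genes, and 32 members overlap another annotated gene. Of the pathway names, *Paaf1* was not matched and was not analysed here. A few genes of the pathway and marker lists are counted but not reported by name here. Figures were drawn with matplotlib 3.10.9.

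The members and lists were chosen with earlier results of these data known. Full values are given for called members, the catalytic and immunosubunits, *Psmd4*, *Psmd11*, *Psmd14*, *Psme3*, *Psme4*, *Psmf1* and *Psmg1* to *Psmg4*, and for *Dnmt1*, *Pomp*, *Nfe2l1*, *Nfe2l2* and called pathway genes. *Psmc5*, *Psmd5*, *Psmd10*, *Psmd13*, *Psme2*, genes at the end of a range, and uncalled pathway genes given with a value were chosen after their values were seen.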

Additional observations from a re-analysis of the deposited data

How the results depend on the processing

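In the 17 alternatives planned and 1 added after seeing the data (trend over length and GC content from the longest annotated transcript in place of the canonical one), no proteasome gene was called higher, and the core median stayed below 0. The count of 2 members called, both lower, became 1 with a minimum mean of 1, edgeR, DESeq2 or limma-voom, 0 with limma without the variance trend (3 at an unadjusted p below 0.05), 5 with the longest-transcript trend and 0 to 2 when 1 library was left out (1 without control replicate 1, 0 without control replicate 2, where 6 had an unadjusted p below 0.05). *Psmc3* was called in 15 of 19 fits, the one reported included. It lost it without the variance trend (adjusted p = 0.213), with the canonical-transcript trend (0.0585), with the longest-transcript trend (0.0698) and without control replicate 2 (0.0973). *Psmd12* was called in 9 fits. Its adjusted p was 0.0502 with edgeR, 0.259 with DESeq2, 0.0533 with limma-voom, 0.0630 with a minimum mean of 1, 0.183 without the variance trend and 0.0614 with the longest-transcript trend. Over all genes, 2476 calls became 0 without the variance trend (3339 at an unadjusted p below 0.05), 1317 with DESeq2 and 1525 to 2205 when 1 library was left out. The 6 pathway calls became 0 without the variance trend (6 at an unadjusted p below 0.05), 3 with DESeq2 and 3 to 7 when 1 library was left out (3 without control replicate 2). The regulatory median of -0.064 became -0.10 with quantile normalization, -0.033 with the canonical-transcript trend, -0.095 with the longest-transcript trend and -0.11 to -0.060 when 1 library was left out. The assembly median of 0.13 became 0.21 with quantile normalization and -0.13 to 0.14 when 1 library was left out. The cause was not tested for any of these. Standard errors were largest for *Psmb10* (0.38) and for *Psmg1* to *Psmg4* and *Psmd10* (0.20 to 0.24). These genes had the fewest reads of the tested members, 89 to 398 over all libraries.

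Same-numbered libraries did not deviate together (r = -0.085 over 14323 genes, 2 pairs), so the numbers are not shown to pair them. With replicate number as a block, 3 members were called (*Psmc5* was added, adjusted p = 0.0490), and 2957 genes in all. With the block and the canonical-transcript trend, 4 members were called, and the regulatory median was -0.033.

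Uncalled genes near 0 changed sign in some settings. With the canonical-transcript trend, with or without the block, *Psmb6* was at 0.026 and *Psmd4* at 0.0086. With the longest-transcript trend *Psmb5* was at 0.021, and with quantile normalization *Nfe2l1* was at -0.042. When 1 library was left out, the fold change ran from -0.22 to 0.019 for *Psmb5*, from -0.50 to 0.0048 for *Psmb10*, from -0.13 to 0.087 for *Psmd14*, from -0.034 to 0.015 for *Psmd11*, from -0.067 to 0.10 for *Psme3*, from -0.18 to 0.33 for *Psmf1*, from -0.14 to 0.40 for *Psmg2*, from -0.60 to 0.092 for *Psmg4* and from -0.030 to 0.050 for *Nfe2l1*.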
